A study of Mus musculus with 48 samples.

Results

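RNA of whole striatal lysate was compared between SAPAP3 knockout mice and wild-type mice labelled as littermates. The comparison used the input libraries of that experiment, chosen by the genotype and RNA type in the labels: 4 knockout and 4 wild-type libraries, 8 of the 48 in the series. All mice, controls included, carried a RiboTag adeno-associated virus for 3 weeks before RNA was taken. This virus puts an epitope-tagged copy of the ribosomal protein gene Rpl22 into striatal astrocytes, so that their ribosome-bound RNA can be precipitated (IP). Input is the RNA of the cleared lysate before that precipitation, and so holds RNA of every cell type in the dissected tissue. The strain is labelled C57, and age and sex are not in the labels. The titles name 1 animal for each library, except wild-type replicate 3, whose title has a number with a decimal point and may stand for 2 animals. Which part of Dlgap3 the knockout allele lacks is not given in the sources used here.

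SAPAP3, encoded by Dlgap3, is a scaffold protein of excitatory synapses. In the postsynaptic density, the SAPAP proteins link PSD-95 (Dlg4), which holds glutamate receptors at the membrane, to the Shank and Homer proteins below it. Dlgap3 is the SAPAP gene most strongly associated with the striatum, and mice without it groom compulsively and are used as a model of obsessive-compulsive behaviour.

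Although the tissue is labelled as striatal astrocytes, the input libraries carried defining transcripts of neurons and of astrocytes. Over the wild-type libraries, the deposited FPKM (reads scaled by gene length and library total) averaged 709 for the indirect pathway peptide gene Penk, 250 for the striatal phosphodiesterase gene Pde10a and 395 for the astrocyte glutamate transporter gene Slc1a2. The libraries held 23.4 M to 33.3 M counted reads (M, mega), and no pair within a group agreed within counting noise. One library stood apart: on the first principal component, which took 36.5% of the variance, wild-type replicate 1 was at -49.6 and the other 7 libraries lay between -1.81 and 17.0. Xist, the RNA of the inactive X chromosome, had 7418 reads in knockout replicate 1, 5513 in wild-type replicate 4 and at most 104 elsewhere. Ddx3y, a Y chromosome gene, had 1 read in knockout replicate 1, 0 in wild-type replicate 4 and 2215 to 3332 elsewhere. The animal numbers in the titles begin with 82 (wild-type replicate 1), 84 (wild-type replicates 2 and 3, knockout replicates 1 and 2) or 87 (wild-type replicate 4, knockout replicates 3 and 4), and the labels do not say what these series mean. The only wild-type mouse of the 87 series, replicate 4, had a high Xist count, as did knockout replicate 1 in the 84 series. Differences within the 87 series therefore cannot be told apart from differences that go with Xist. In the 84 series this holds for knockout replicate 1 alone. Knockout replicate 2 (104 Xist reads) and wild-type replicates 2 and 3 (6 and 0) all had low counts. The differences given within the 84 series average knockout replicates 1 and 2. Of the 201 genes eligible to be named, 52 had differences of opposite sign within the 84 and the 87 series, and values within the series are printed for only some of these.

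Across the 15591 genes tested, Dlgap3 alone passed the test, and it fell. That is 0.00641% of the genes tested at an adjusted p under 0.05 (edgeR quasi-likelihood test, Benjamini-Hochberg). The next smallest adjusted p was 0.0841. At an unadjusted p under 0.05 stood 869 genes (5.57%), 440 of them higher in knockout mice (2.82%) and 429 lower (2.75%), and 93 genes (0.596%) were under 0.01. In 4.03% of the genes tested, the 4 knockout values lay all above or all below the 4 wild-type values.

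The typical difference was small. The median log2 fold change (knockout minus wild type) was 0.00, with 7724 genes higher and 7867 lower, and 90% of genes lay between -0.32 and 0.27. The 95% interval of the log2 fold change lay wholly inside a 1.5-fold change in either direction for 11959 genes, 76.7% of those tested. This share was 94.8% of the 6327 genes over 32 CPM (read counts scaled to the library total), 81.1% of the 7025 genes between 2 and 32 CPM, and 11.8% of the 2239 genes below that. Below 2 CPM the median interval reached 0.64 to either side on the log2 scale, so for most of these rare transcripts a 1.5-fold change could not be told from none. Of all genes tested, 91 had both an unadjusted p under 0.05 and a difference past 1.5-fold.

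**Figure D1:**
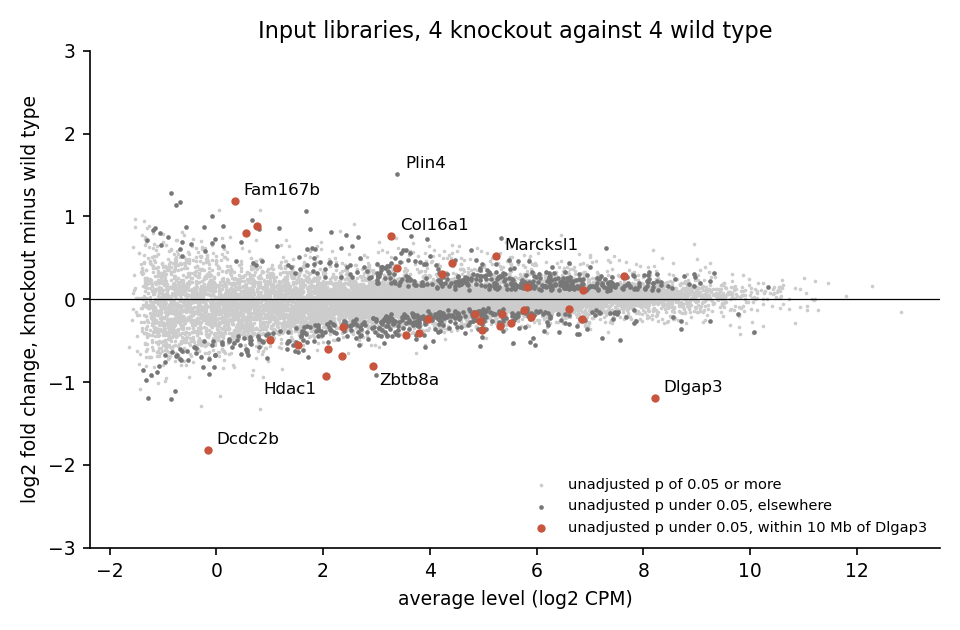
Log2 fold change (knockout minus wild type) of each tested gene against its average level in log2 CPM, over 4 knockout and 4 wild-type input libraries. Xist is left out of the plot. Red points are genes within 10 Mb of Dlgap3 at an unadjusted p under 0.05; Dlgap3, at -1.19, is the 1 gene that passed the adjusted threshold.

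Dlgap3 lies on chromosome 4 from 127169204 to 127237022 on the plus strand (GRCm38, the assembly also called mm10). Its level was 498, 391, 380 and 397 CPM in wild-type replicates 1 to 4, and 204, 190, 167 and 167 CPM in knockout replicates 1 to 4. All knockout libraries were below all wild-type libraries, and wild-type replicate 1 was the highest. The knockout mean was 43.7% of the wild-type mean, so reads assigned to the gene remained, and the log2 fold change was -1.19 ± 0.101 (SE; edgeR adjusted p = 0.00698). It was -0.97 within the 84 series and -1.25 within the 87 series. The call itself did not hold in every subset: without knockout replicate 2, 3 or 4 the adjusted p was 0.0531 to 0.0641, with a log2 fold change of -1.22 to -1.15, and no gene was called.

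The other SAPAP genes did not pass the test. Dlgap1 stood at 171 CPM in wild-type replicate 1 and between 365 and 415 CPM in the other 7 libraries, with a log2 fold change of 0.31 (95% interval -0.16 to 0.77), or 0.10 without that replicate. Dlgap2 was at 0.02 (interval -0.12 to 0.17) and Dlgap4 at 0.16 (interval -0.03 to 0.34). Within the 84 series Dlgap4 was at 0.26, and within the 87 series at -0.08. On the deposited FPKM scale, which divides by gene length, Dlgap3 was the most abundant of the 4 in wild-type input (110) and fell to the level of Dlgap1 in knockout input (47.2 against 49.0), above Dlgap4 (29.9) and Dlgap2 (22.4).

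Among 26 scaffolds and partners of the postsynaptic density, 17 were higher and 9 lower, none had an unadjusted p under 0.05 (5.57% of all genes), and the median log2 fold change was 0.04 against 0.00 over all genes. Without knockout replicates 3 and 4 (left out here and below after seeing the data) the median was 0.11. In that fit 6 of 26 (23.1%), all higher, had an unadjusted p under 0.05. Among all genes 3.58% did, higher or lower, with 362 of 15865 higher. The fit sets knockout replicates 1 and 2, of the 84 series, against all wild-type libraries, replicate 1 included. The list level differed by 0.08 within the 84 series and by -0.01 within the 87 series. None of the following partners of SAPAP3 passed the test. Dlg4 (PSD-95) was at 0.03 (interval -0.13 to 0.19), Shank3, the main striatal Shank, at -0.11 (-0.31 to 0.10), and Homer1, which ties Shank to metabotropic glutamate receptors, at -0.07 (-0.23 to 0.08). Dlg4 was at 0.18 within the 84 and -0.14 within the 87 series, and Shank3 at 0.08 and -0.16. Shank1 varied most, from 52.2 CPM in wild-type replicate 1 to 220 CPM in knockout replicate 2, and its log2 fold change of 0.54 had an interval of -0.14 to 1.22. Within the 84 series Shank1 was at 0.73 and within the 87 series at -0.29, so the 2 series differed in sign. Camk2a, the kinase subunit with the highest count in the list, was at 0.24 (-0.07 to 0.56). Homer2, a Homer paralog, was at 0.38 (-0.09 to 0.86), and Shank2 at 0.27 (-0.02 to 0.57).

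Subunits and auxiliaries of AMPA, kainate and NMDA receptors gave a similar account: 17 of 24 were higher, 3 had an unadjusted p under 0.05 (2 higher, 1 lower; 5.57% of all genes), and the median was 0.06. The list level differed by 0.11 within the 84 and by -0.01 within the 87 series. Gria2, the AMPA receptor subunit with the highest count, was at 0.00 (-0.14 to 0.14). Grin3a, an NMDA receptor subunit, was at 0.37 (0.04 to 0.71) and Neto2, an auxiliary subunit of kainate receptors, at -0.22 (-0.41 to -0.03), both with an adjusted p of 0.735. Grin3a was at 0.45 within the 84 and -0.05 within the 87 series. The kainate receptor gene Grik3, which lies 1.68 Mb from Dlgap3, had 150, 191, 190 and 185 CPM in wild-type and 241, 213, 202 and 214 CPM in knockout libraries. Its groups did not overlap, at a log2 difference of 0.28 ± 0.0867 (edgeR adjusted p = 0.735). Of 7 metabotropic glutamate receptor genes, 5 were lower, with a median of -0.07. Grm5, which couples to Homer and Shank, was at -0.21 (-0.42 to 0.01) and was highest in wild-type replicate 1 (917 CPM, against 647 to 777 CPM elsewhere). Of 11 tested serotonin receptor genes, 6 were higher and 5 lower; Htr2a went from 31.6, 38.5, 38.2 and 38.2 CPM to 41.7, 39.2, 48.3 and 53.7 CPM, a log2 difference of 0.32 that did not pass (edgeR adjusted p = 0.735).

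The genes nearest to a change apart from Dlgap3 itself were its neighbours on chromosome 4. Of the 273 tested genes whose start lies within 10 Mb of that of Dlgap3 (Dlgap3 included), 33 had an unadjusted p under 0.05, which is 12.1% against 5.57% over all genes, 11 of them higher and 22 lower. The excess lay close to the gene: 25 of 90 genes within 3 Mb (27.8%), 8 of 183 from 3 to 10 Mb (4.37%), 23 of 345 from 10 to 30 Mb (6.67%) and 785 of 14473 on other chromosomes (5.42%). At an unadjusted p under 0.01, 18 of the 90 genes within 3 Mb stood (20.0%), against 0.596% over all genes. Groups that do not overlap occurred for 21 of the 90 (23.3%, against 4.03%). In each of the alternatives run, the share within 10 Mb stayed above the share over all genes (9.49% to 17.6% against 3.38% to 9.79%). The pattern of neighbours was known from earlier results of these data, so it is given as a description. Whether the region around Dlgap3 differs in sequence between the knockout mice and their littermates was not tested.

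**Figure D2:**
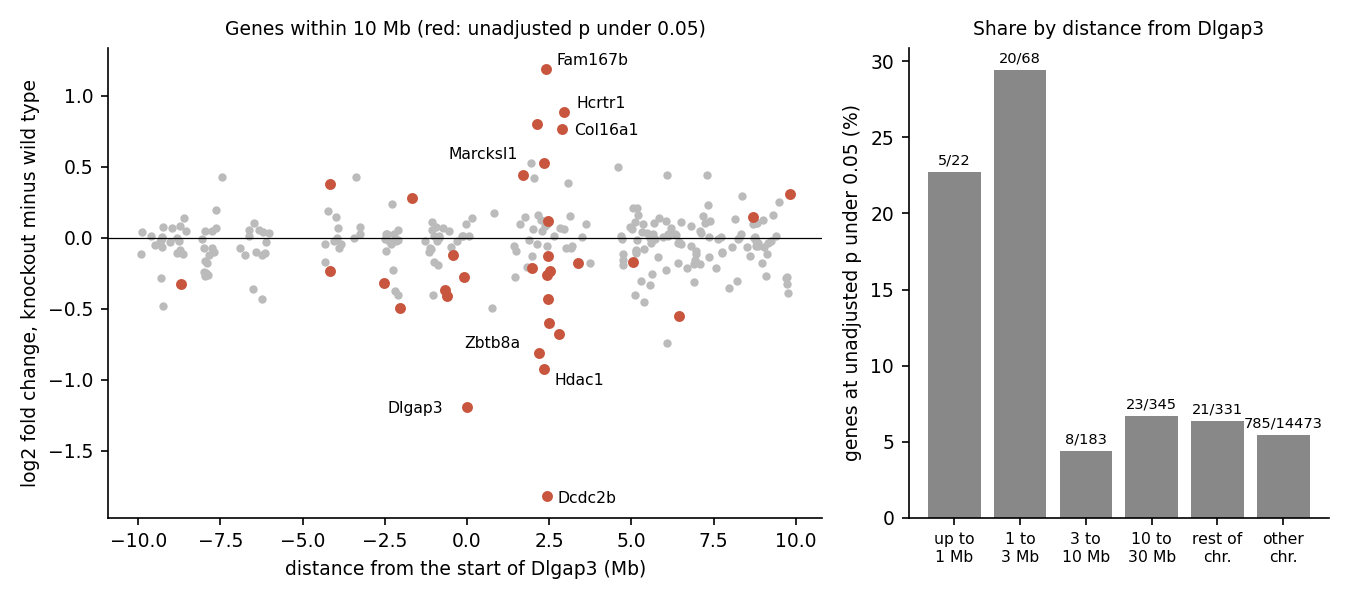
Left, log2 fold change (knockout minus wild type, input) of each tested gene within 10 Mb against the distance of its start from that of Dlgap3; red points have an unadjusted p under 0.05. Right, the percentage of tested genes at an unadjusted p under 0.05 by distance, with counts above the bars: 5 of 22 and 20 of 68 in the 2 nearest classes, and 4.37% to 6.67% in the others.

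Neighbours at an unadjusted p under 0.01 stood on both sides, higher and lower in knockout mice, and none but Dlgap3 passed over all genes. Zbtb8a, a zinc finger gene 2.18 Mb away, was at 10.2, 9.36, 10.3 and 8.65 CPM in wild-type and 6.10, 5.33, 5.08 and 5.47 CPM in knockout libraries. The groups were well apart, and the log2 difference was -0.81 ± 0.0984 (edgeR adjusted p = 0.0841). Hdac1, a histone deacetylase gene (129516104 to 129542713, minus strand), was at 5.20, 6.66, 4.89 and 4.84 CPM in wild-type and 3.15, 2.49, 2.66 and 3.08 CPM in knockout libraries, a difference of -0.92 ± 0.146. Marcksl1, which encodes an actin and calmodulin binding protein, lies next to Hdac1 on the opposite strand, and the annotated genes do not overlap. It was higher in every knockout library: 31.1, 29.9, 29.2 and 33.3 CPM in wild-type against 47.2, 42.1, 37.3 and 51.0 CPM in knockout libraries, a difference of 0.52 ± 0.095. Neither passed over all genes (edgeR adjusted p = 0.386 and 0.617).

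Col16a1, a collagen gene from 130047840 to 130099283, had 8.05, 7.99, 6.54 and 6.06 CPM in wild-type and 14.0, 12.9, 9.84 and 11.8 CPM in knockout libraries. Every knockout library was above every wild-type library, at a log2 difference of 0.76 ± 0.135 (edgeR adjusted p = 0.617). Trim62, a ubiquitin ligase gene, was at 0.44 ± 0.083, and Zbtb40, a zinc finger gene 9.81 Mb away, at 0.31 ± 0.056. Rare transcripts stood higher as well: Fam167b at 1.19, the orexin receptor gene Hcrtr1 at 0.88 and the intermediate filament gene Sync at 0.80, which lay between 0.504 and 2.66 CPM in the 8 libraries. On the lower side, the claspin gene Clspn, of the replication checkpoint, was at -0.41, Tmem39b at -0.60 and Zmym6, the nearest of these genes at 0.0918 Mb, at -0.28. Khdrbs1, which encodes the RNA-binding protein SAM68, was at -0.24, and its groups overlapped.

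Some of these reads cannot be assigned with certainty. Tmem234 (-0.26) lies on the plus strand opposite Dcdc2b and Ccdc28b (-0.43), and whether counting used strand is not given in the sources used here. Dcdc2b, a doublecortin-domain gene, was at 1.86, 1.26, 1.05 and 1.16 CPM in wild-type and 0.474, 0.311, 0.303 and 0.398 CPM in knockout libraries, a difference of -1.82 ± 0.266 (edgeR adjusted p = 0.260). Sync likewise overlaps Rbbp4, and Zbtb8a overlaps Zbtb8os, on opposite strands. The non-coding gene 1700003M07Rik (chosen once its values were known) was at -0.68 and lies 2.79 Mb away. With DESeq2, 8 genes passed an adjusted p of 0.05, all within 3 Mb of Dlgap3: Dlgap3, Zbtb8a, Hdac1, Dcdc2b, Marcksl1, Col16a1, Trim62 and 1700003M07Rik.

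**Figure D3:**
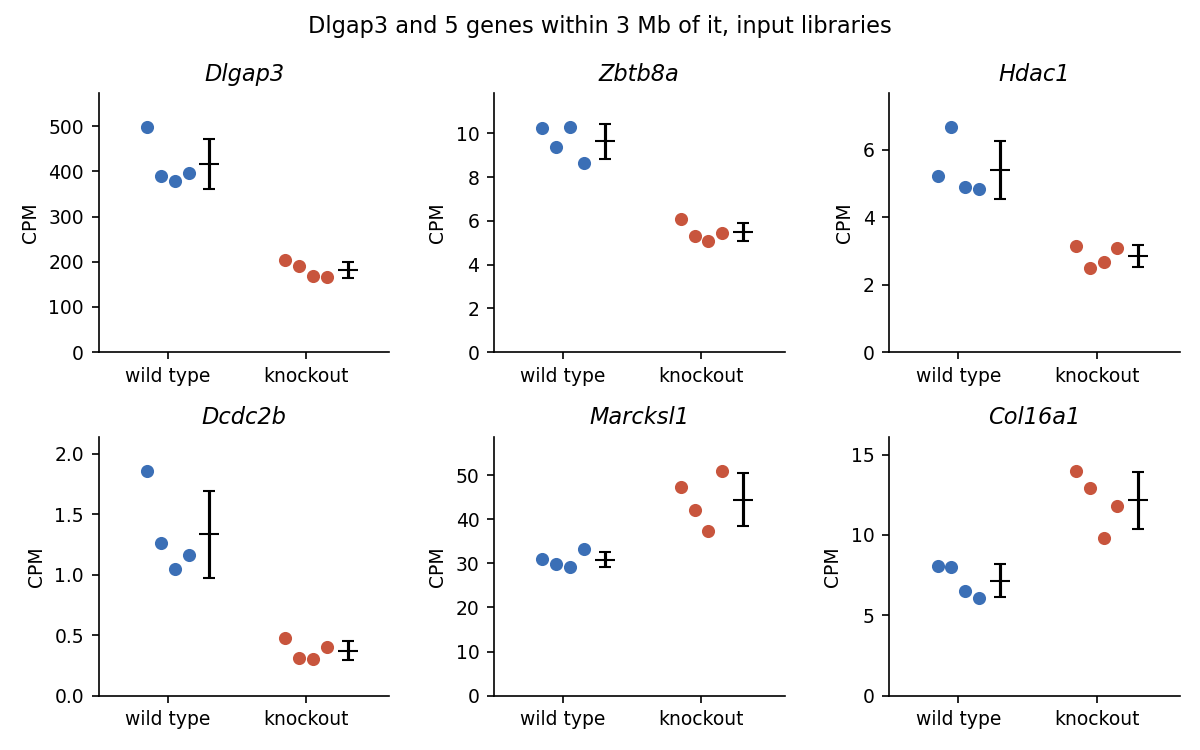
Level in CPM of Dlgap3 and 5 genes within 3 Mb of it in each input library; blue points are wild-type and red points knockout replicates 1 to 4 from left to right, and bars give the mean ± SD (n = 4 each). The groups do not overlap in any of the 6 panels; Marcksl1 and Col16a1 are higher and the other 4 lower in knockout libraries.

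The precipitated astrocyte RNA of the same mice gave values of its own for these genes. In IP, 4 of 15198 genes were called (0.0263%), and 399 had an unadjusted p under 0.05. Those called were Dlgap3, Hdac1, Col16a1 and 1700003M07Rik, all within 3 Mb of Dlgap3. Their IP differences were -1.40, -1.01, 1.38 and -1.15, against -1.19, -0.92, 0.76 and -0.68 in input. The IP difference of Zbtb8a, -0.77 against an input value of -0.81, did not pass (edgeR adjusted p = 0.373). Col16a1 went from 19.2 to 27.5 CPM in wild-type IP to 52.4 to 68.6 CPM in knockout IP libraries. Marcksl1 was at 0.25 in IP, at levels of 38.8 to 59.1 CPM. Dcdc2b was at 0.67 in IP, at levels under 1.1 CPM. No gene passed the test of the difference between the input and the IP effect (0 of 16059 genes, 0%; 203 at an unadjusted p under 0.05; 1 gene with DESeq2). The smallest p of that test belonged to Dcdc2b (-2.50 in input relative to IP, edgeR adjusted p = 0.410), followed by Mc4r, Col1a2, Terc, Lpcat2 and Zak, each with an adjusted p of 1.00.

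The 16 other input libraries of the series, from mice given vehicle or MPTP and from R6/2 mice with a control cargo or hM4Di, were set beside these values after scaling all 24 together. They come from other projects, so this is a description. Dlgap3 itself was on the wild-type side of the midpoint of the gap between the groups in 11 of the 16. It was at 461 to 570 CPM in vehicle, 266 to 348 CPM in R6/2 control cargo and 270 to 321 CPM in R6/2 hM4Di libraries. On this scale it was at 403 to 517 CPM in wild-type and 176 to 214 CPM in knockout libraries. The side of the midpoint thus does not by itself mark the genotype. Hdac1 and Dcdc2b were on the wild-type side in 15 of the 16, and Trim62 and Grik3 in 16. Grik3 was at 120 to 158 CPM there, against 156 to 202 CPM in wild-type libraries. Col16a1 was on the wild-type side in 9 of 16, Clspn in 8 and Zbtb40 in 6. Marcksl1 was at 41.9 to 64.4 CPM in these libraries, on the knockout side in all 16. Zbtb8a was on the wild-type side in 11 of 16, over a range of 6.07 to 17.1 CPM. It split by project, with 14.4 to 17.1 CPM in vehicle and MPTP libraries and 6.07 to 9.27 CPM in R6/2 libraries. Clspn split likewise, with 26.3 to 32.6 CPM and 5.09 to 7.45 CPM.

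Away from the Dlgap3 region, 836 of 15318 genes had an unadjusted p under 0.05 (5.46%), and none passed. The following genes had the largest differences among those at an unadjusted p under 0.01 with separate groups, and each had an adjusted p of 0.735. On the higher side were Nr2f2, a nuclear receptor gene of interneuron and vascular lineages, at 0.73 ± 0.223, the glucuronyltransferase gene B3gat2 at 0.56, the myosin light chain kinase gene Mylk at 0.56 and Zfp189 at 0.52. Nr2f2 had 6.77, 10.3, 13.6 and 15.3 CPM in wild-type and 17.4, 23.5, 15.8 and 19.8 CPM in knockout libraries. The collagen hydroxylase gene P4ha2 was at 0.43, the cholesterol transporter gene Stard4 at 0.37, the methyltransferase gene Smyd2 at 0.36 and the interneuron peptide gene Sst at 0.32. Sst had 54.2, 65.8, 71.9 and 75.2 CPM in wild-type and 87, 77.6, 79.5 and 90.3 CPM in knockout input, while its IP difference was -0.07. Rltpr, Gatsl2, Nfya and Polr3k made up the rest of the 12, at 0.28 to 0.40.

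On the lower side the list was headed by Sh3rf2, a ubiquitin ligase gene expressed in medium spiny neurons, at -0.56 ± 0.143. It had 99.6, 55.9, 73.0 and 71.8 CPM in wild-type and 51.4, 52.8, 48.8 and 51.2 CPM in knockout libraries, and its IP difference was also -0.56. The histone demethylase gene Kdm4d was at -0.55, the ribokinase gene Rbks at -0.50, the calcium store gene Casq2 at -0.48 and the signalling ligand gene Wnt2 at -0.43. Prkab1, a regulatory subunit of the energy sensor AMPK, had 12, 14.4, 12.9 and 15.1 CPM in wild-type and 10.2, 11.0, 10.9 and 10.4 CPM in knockout libraries, at -0.36. The direct pathway transcription factor gene Ebf1 was at -0.39 and the chemokine gene Cxcl12 at -0.29, and Tmem98, Nipal4, Crocc and Cpsf4 lay between -0.39 and -0.32. Wild-type replicate 1 was the lowest of the 8 libraries for 11 of the 12 genes on the higher side and the highest for 8 of the 12 on the lower side. Without it Sh3rf2 was at -0.39, Ebf1 at -0.25, Nr2f2 at 0.55 and Sst at 0.24.

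Markers of the projection neurons of the striatum were lower in knockout input, and this rested largely on wild-type replicate 1. All 20 markers shared by medium spiny neurons had a log2 fold change below 0, with a median of -0.28, and 3 had an unadjusted p under 0.05 (2.75% of all genes were lower at this p). Without wild-type replicate 1 the median was -0.10, 19 of 20 were below 0 and 3 were under 0.05, against 3.97% of all genes in that fit, higher or lower. In bulk tissue, fewer cells of a type and less RNA per cell cannot be told apart. The phosphodiesterase gene Pde10a, with the highest count of the list, was at -0.29. Foxp1, a transcription factor gene of these neurons, had 550 CPM in wild-type replicate 1, 393 to 453 CPM in the other wild-type libraries and 371 to 387 CPM in knockout libraries, with a log2 difference of -0.26 that was -0.16 without that replicate.

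The 2 classes of projection neuron gave similar values. Of 9 direct pathway markers 8 were lower (median -0.23, and -0.07 without wild-type replicate 1), with the dopamine receptor gene Drd1a at -0.27 and the transcription factor gene Isl1 at -0.44. Of 9 indirect pathway markers 7 were lower (median -0.29, and -0.08 without it), with Adora2a, the adenosine receptor gene, at -0.49, Drd2 at -0.34 and Penk at -0.33. The interval of Drd2 ran from -0.70 to 0.02 and that of Drd1a from -0.61 to 0.07. The difference between the 2 classes was not tested.

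Cortical excitatory neuron markers moved the other way in the same library. Relative to the wild-type mean, the mean log2 level of the 17 markers was -1.70 in wild-type replicate 1, 0.48 to 0.63 in the other wild-type and 0.58 to 0.86 in knockout libraries. The median log2 fold change was 0.46 with all libraries and 0.18 without that replicate, where 5 of 17 had an unadjusted p under 0.05, against 3.97% of all genes in that fit, higher or lower. Slc30a3, a synaptic vesicle zinc transporter gene, had 3.34 CPM in wild-type replicate 1, 20.2 to 26.2 CPM in the other wild-type and 26.2 to 30.5 CPM in knockout libraries. Mef2c, with the highest count of the list, had 257 CPM in that library and 525 to 657 CPM elsewhere. The IP library of the same mouse stood at -1.40 on this list. Dissection or cell makeup as the source of these levels was not tested.

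Presynaptic vesicle genes were also lowest in wild-type replicate 1. Of 22, 21 were higher, 3 had an unadjusted p under 0.05 (2.82% of all genes were higher at this p) and the median was 0.21. Without wild-type replicate 1 the median was 0.07, with 4 under 0.05, all 4 higher. In that fit 3.97% of all genes were under 0.05, higher or lower, with 399 of 15657 higher. The synapsin gene Syn2 had 342, 371, 406 and 448 CPM in wild-type and 503, 457, 461 and 481 CPM in knockout libraries, at 0.28 and at 0.22 without that replicate. The synaptophysin gene Syp had 388 CPM in wild-type replicate 1, at most 642 CPM in the other wild-type and 698 to 724 CPM in knockout libraries, at 0.32 and 0.17. For GABA synthesis, transport and receptors the median was 0.04, with 12 of 20 higher. All 21 cholesterol synthesis genes were above 0, with a median of 0.14, or 0.07 and 16 of 21 without wild-type replicate 1.

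**Figure D4:**
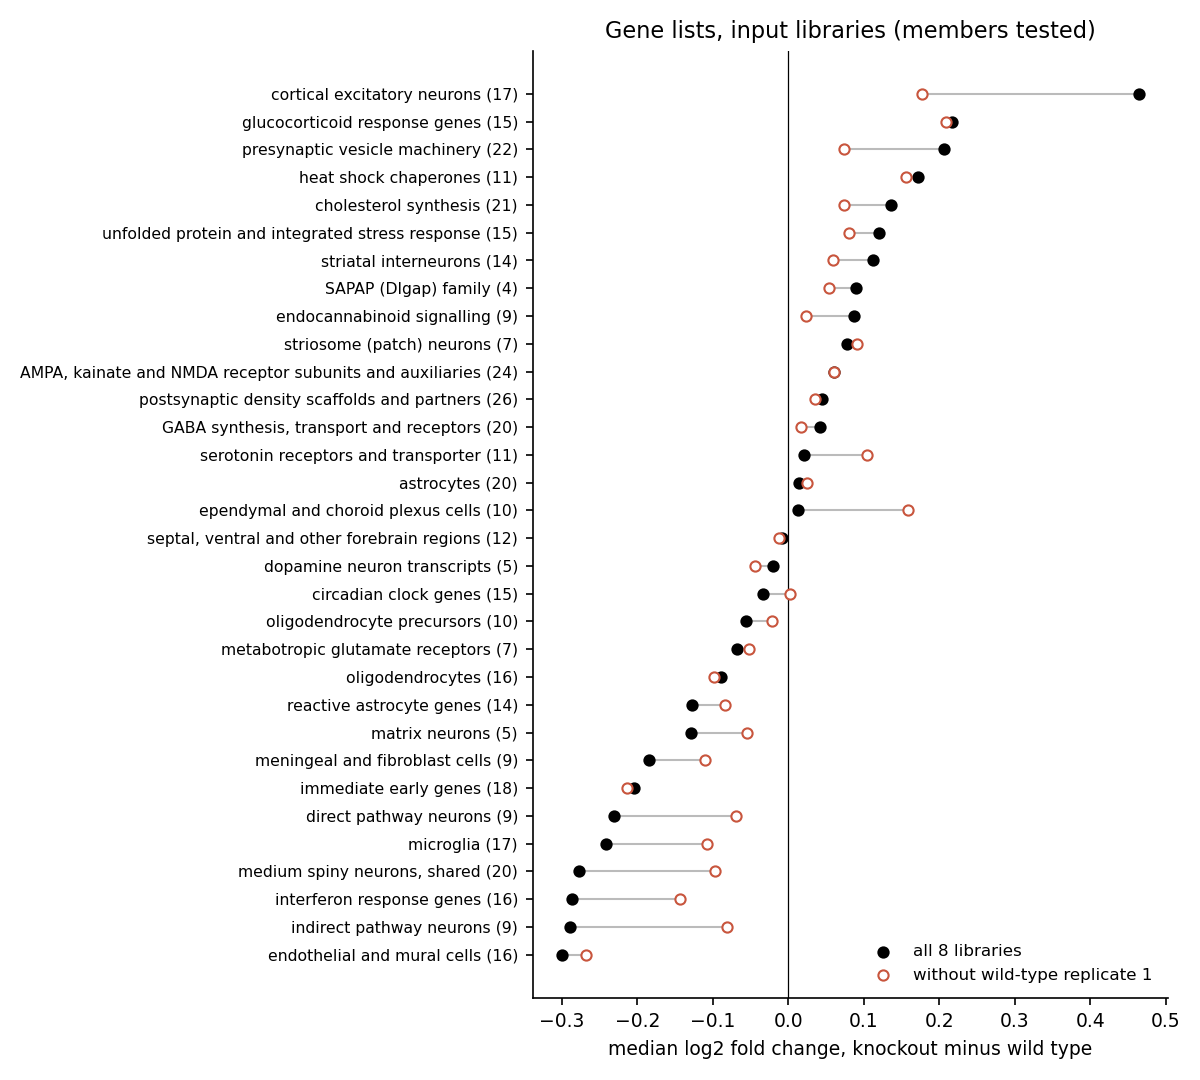
Median log2 fold change (knockout minus wild type, input) of each gene list with 4 or more tested members other than the sex-linked transcripts, with all 8 libraries (black) and without wild-type replicate 1 (open red). The medians of the cortical list (0.46 and 0.18) and of the medium spiny neuron list (-0.28 and -0.10) lie nearer to 0 without it, while those of the endothelial and mural (-0.30 and -0.27), immediate early (-0.20 and -0.21) and glucocorticoid (0.22 and 0.21) lists lie close together.

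Endothelial and mural cell markers were lower in knockout input with and without that library. All 16 were below 0, with a median of -0.30, and 9 had an unadjusted p under 0.05, against 2.75% of all genes that were lower at this p. Without wild-type replicate 1 the median was -0.27, with 16 of 16 below 0 and 6 under 0.05, against 3.97% of all genes in that fit. The tight junction gene Cldn5 had 19.2, 16.4, 12.2 and 14.3 CPM in wild-type and 13.6, 11.2, 10.7 and 8.83 CPM in knockout libraries, at -0.48 (interval -0.84 to -0.13). Tek, the angiopoietin receptor gene, had 12.2, 9.43, 9.996 and 8.95 CPM against 8.94, 7.54, 7.84 and 6.52 CPM, at -0.39. The blood-brain barrier transporter gene Abcb1a was at -0.30, and the pericyte receptor gene Pdgfrb at -0.21. None passed over all genes (edgeR adjusted p = 0.735). The list level was lower in knockout mice within both series, with differences of -0.18 in the 84 and -0.26 in the 87 series, and was lowest in knockout replicate 4 (-0.51). Without knockout replicates 3 and 4 all 16 stayed below 0, at a median of -0.20, and 1 had an unadjusted p under 0.05. In that fit 3.58% of all genes were under 0.05, higher or lower, with 206 of 15865 lower. In IP, which targets astrocytes by design, the median was -0.01.

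For other non-neuronal and immune lists the values were as follows. The 20 astrocyte markers were split 10 and 10, with a median of 0.01, and Slc1a2 was at 0.16. The 16 oligodendrocyte markers had a median of -0.09 (11 lower); Opalin, a myelin gene, had 32.2, 37.4, 38.0 and 32.4 CPM in wild-type and 30.3, 31.5, 27.3 and 28.2 CPM in knockout libraries, at -0.26. All 17 microglia markers were below 0, and 1 had an unadjusted p under 0.05 (2.75% of all genes were lower at this p). Their median was -0.24, or -0.11 when wild-type replicate 1 was left out and -0.39 when replicate 3 was. Their level in wild-type libraries ranged from -0.50 (replicate 3) to 0.34 (replicate 1), and the knockout libraries lay within that range, from -0.29 to -0.11. The difference was 0.07 within the 84 and -0.35 within the 87 series. In IP the microglia median was 0.64, with 16 of 17 higher. The IP list level was 1.23 and 0.99 in knockout replicates 1 and 4, and -0.09 and -0.34 in replicates 2 and 3. The 16 interferon response genes were all below 0 (median -0.29, 0 with an unadjusted p under 0.05), and wild-type libraries spread from -1.03 in replicate 3 to 0.52 in replicate 2. Their median was -0.53 without wild-type replicate 3, -0.14 without replicate 1 and -0.10 without replicate 2, and the series differences were 0.16 (84) and -0.34 (87). In IP the interferon median was 0.04, with 14 of 16 higher. Reactive astrocyte genes stood at a median of -0.13 over 14 members, with the filament gene Gfap at -0.03. That median ran from -0.01 without wild-type replicate 2 to -0.31 without wild-type replicate 3, and the wild-type levels from -0.73 to 0.46.

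Genes that glucocorticoid receptors are known to activate were higher in knockout input, in 2 of the 4 mice. Of 15, 14 were above 0, and 7 had an unadjusted p under 0.05, all 7 higher (2.82% of all genes were higher at this p); the median was 0.22. Plin4, a lipid droplet gene, had 3.01, 5.18, 5.65 and 7.52 CPM in wild-type and 5.32, 5.95, 23.0 and 27.2 CPM in knockout libraries, at 1.51 ± 0.532. The kinase gene Sgk1 had 116, 117, 110 and 156 CPM in wild-type and 170, 113, 232 and 254 CPM in knockout libraries, at 0.62. Hif3a was at 0.78 and Tsc22d3, an anti-inflammatory leucine zipper gene, at 0.39. In each of these, knockout replicates 3 and 4 were the 2 highest libraries, and knockout replicates 1 and 2 lay among or near the wild-type values.

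By library, the level of this list relative to the wild-type mean was -0.20, 0.08, 0.01 and 0.12 in wild-type and 0.09, 0.12, 0.53 and 0.59 in knockout mice. The difference was 0.06 within the 84 series and 0.44 within the 87 series, which has 1 wild-type mouse. Without knockout replicates 3 and 4 the median was 0.07, and none of the 15 had an unadjusted p under 0.05. In IP of the same mice the levels of knockout replicates 3 and 4 were 0.72 and 0.81, against 0.11 and 0.24 in replicates 1 and 2. The receptor gene itself, Nr3c1, was at 0.02 (chosen once its values were known). The time of day and handling of each mouse are not in the labels, and their part in these levels was not tested.

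Heat shock chaperones stood higher in the same 2 mice. All 11 were above 0, with a median of 0.17 and 3 at an unadjusted p under 0.05 (2.82% of all genes were higher at this p). The list level was 0.13 and 0.08 in knockout replicates 1 and 2 and 0.42 and 0.41 in replicates 3 and 4, against -0.12 to 0.08 in wild-type mice. Without knockout replicates 3 and 4 the median was 0.10, 10 of 11 were above 0 and 1 had an unadjusted p under 0.05. In that fit 3.58% of all genes were under 0.05, higher or lower, with 362 of 15865 higher. Hspa1b and Hspa1a, the inducible HSP70 genes, gave the 2 largest differences. Hspa1b had 1.16, 2.20, 2.06 and 2.58 CPM in wild-type and 2.47, 2.52, 6.33 and 5.50 CPM in knockout libraries, at 1.06 ± 0.356 (2.01 in IP). Hspa1a had 2.06, 2.48, 2.67 and 3.38 CPM against 3.08, 2.66, 5.42 and 5.11 CPM, at 0.61 (1.27 in IP). The cochaperone gene Hsph1 was spread more evenly, with 223, 249, 272 and 267 CPM in wild-type and 292, 296, 289 and 287 CPM in knockout libraries, at 0.20.

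The 2 HSP70 genes are near-identical copies on chromosome 17, so reads may be shared between them and each value is uncertain by itself. Their promoters are shown because both genes were highest in the same 2 libraries and because they show how alike the copies are. The 250 bases before the start of each gene (RefSeq, GRCm38.p6, minus strand) are printed 5′ to 3′, at chr17:34972157-34972406 for Hspa1a and chr17:34959239-34959488 for Hspa1b. Capitals mark the letters GAANNTTC, a pair of the inverted repeats that heat shock factor is known to bind, where N is any base; the pattern reads the same on both strands.
Hspa1a: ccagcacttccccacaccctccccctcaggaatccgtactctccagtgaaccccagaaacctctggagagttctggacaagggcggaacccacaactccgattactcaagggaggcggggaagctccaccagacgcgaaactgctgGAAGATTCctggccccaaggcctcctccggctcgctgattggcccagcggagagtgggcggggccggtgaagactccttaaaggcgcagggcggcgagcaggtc
Hspa1b: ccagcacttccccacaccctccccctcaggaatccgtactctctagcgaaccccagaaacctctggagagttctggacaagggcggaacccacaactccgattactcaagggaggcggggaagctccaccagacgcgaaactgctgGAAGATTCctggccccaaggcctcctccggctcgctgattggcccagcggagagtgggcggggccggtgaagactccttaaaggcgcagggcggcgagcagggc
The 2 windows differed at 3 of 250 bases, and in both the pattern began 104 bases before the start. Among windows of the same length for 27025 gene symbols, 6.78% held it, and of the 8 heat shock list members with a window, 4 did (Hspa1a, Hspa1b, Hspb1 and Hspe1). Hspa1a and Hspa1b are near-identical copies, so they do not count as 2 separate members here, and the share was not tested. A match is a description of the letters and does not show a bound site.

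Immediate early genes, which neurons switch on within minutes of activity, were mostly lower. Of 18, 14 were below 0 and 6 had an unadjusted p under 0.05, 5 lower and 1 higher, against 5.57% of all genes (2.75% lower). The median was -0.20, and leaving out 1 library gave from -0.11 (without knockout replicate 1) to -0.32 (without wild-type replicate 4). Egr2 had 13.4, 9.61, 11.3 and 7.36 CPM in wild-type and 4.00, 6.09, 4.51 and 7.57 CPM in knockout libraries, at -0.91 ± 0.229 (-1.35 in IP). Junb had 89.3, 72.9, 71.0 and 45.2 CPM in wild-type and 45.0, 44.2, 45.2 and 60.4 CPM in knockout libraries, at -0.51, and Nr4a1 was at -0.52. Of the 4 members above 0, Jun, at 0.24, had an unadjusted p under 0.05. For each of Egr2, Junb and Nr4a1 the groups overlapped: wild-type replicate 4 was the lowest of the wild-type and knockout replicate 4 the highest of the knockout libraries. The difference in list level was -0.35 within the 84 series and 0.07 within the 87 series, so the 2 series differed in sign. Without knockout replicates 3 and 4 the median was -0.28, with 4 lower and 1 higher at an unadjusted p under 0.05, against 3.58% of all genes. None passed over all genes (edgeR adjusted p = 0.735).

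**Figure D5:**
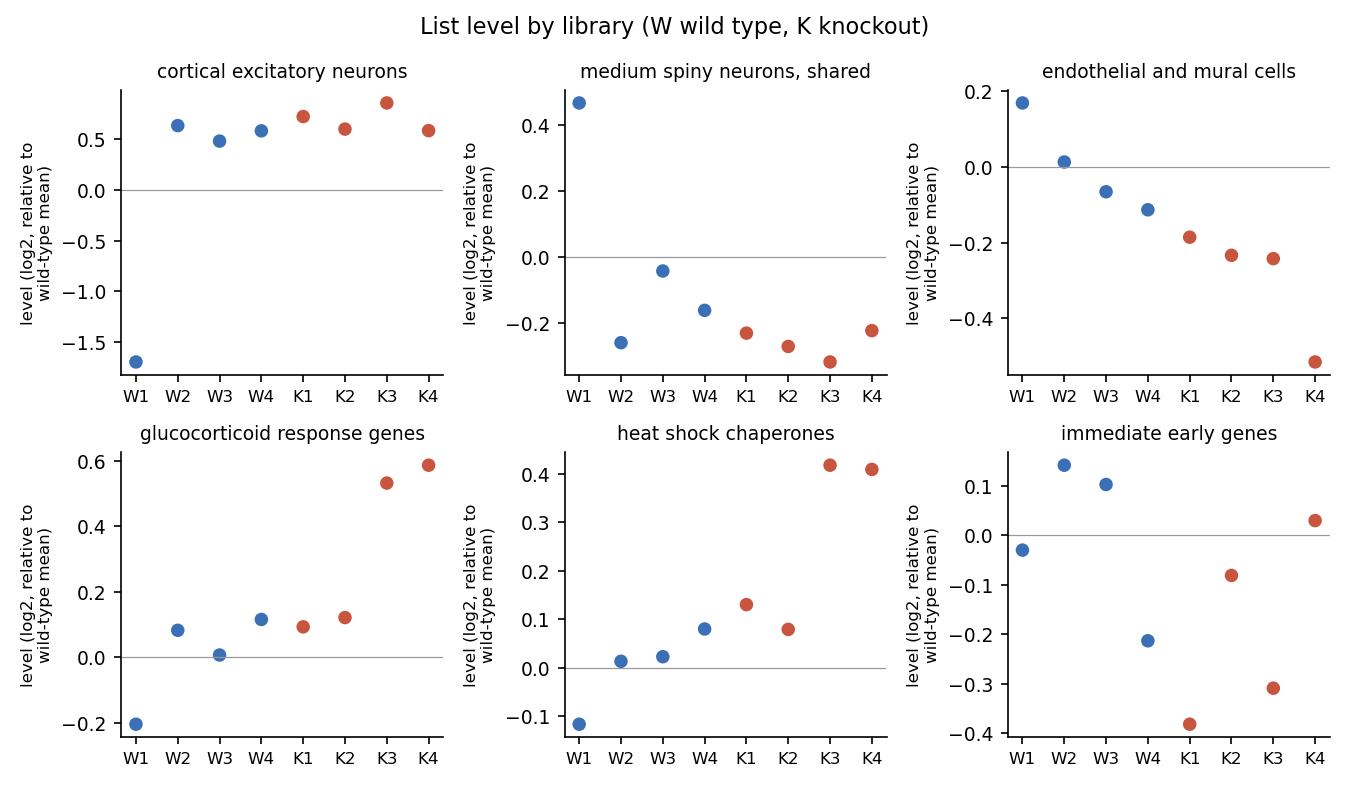
Mean log2 level of 6 gene lists in each input library, relative to the wild-type mean, for wild-type (blue, W1 to W4) and knockout (red, K1 to K4) replicates. Wild-type replicate 1 stands apart on the cortical list (-1.70) and the medium spiny neuron list (0.47), and knockout replicates 3 and 4 on the glucocorticoid (0.53 and 0.59) and heat shock (0.42 and 0.41) lists.

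The transcript of the tagged ribosomal protein, Rpl22, varied between mice. It had 186, 236, 123 and 146 CPM in wild-type and 124, 137, 127 and 112 CPM in knockout input, at -0.46 (edgeR adjusted p = 0.735). Reads of the viral copy and of the mouse gene were not told apart.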

How the data were processed

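The submitters' processing notes name STAR, HTSeq and mm10; versions, annotation and the use of strand are not given in the sources used here. Libraries were stranded and depleted of ribosomal RNA, per the labels' protocols. The table deposited by the authors holds whole read counts for 24060 symbols, and the deposited FPKM are counts divided by gene length and column total; they served for levels between genes and for 1 alternative, limma-trend on log2 values of the deposited FPKM plus 1.

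In edgeR 4.0.16 (R 4.3.3), filterByExpr kept genes at a minimum count of 10, TMM set the scaling, and the 8 input libraries alone entered the quasi-likelihood fit, with Benjamini-Hochberg adjustment over all genes tested. The SE is that implied by the F statistic, and intervals use its 9.75 degrees of freedom. P-values measure the spread between these mice, and the labels do not say which of them share a litter. CPM are TMM-scaled. A list's level in a library is the mean over tested members of log2 CPM minus the wild-type mean. Coordinates came from GENCODE M21 (GRCm38): 23621 rows had 1 position, 865 of them by an older symbol, and distances run between gene starts.

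The members, gene lists and the rule for named genes were chosen with earlier results of these data known. Named were Dlgap1 to Dlgap4, their main partners, Rpl22 and Xist; neighbours within 10 Mb at an unadjusted p under 0.01; elsewhere the 12 largest rises and 12 largest falls at that p with a mean log2 CPM of at least 1 and separate groups; up to 4 members per list by p, and the member with the highest count; and the 6 smallest p of the interaction, fitted on 16 libraries with genotype and fraction. Alternatives were 2 other scalings (RLE, upper-quartile), limma-voom (limma 3.58.1), DESeq2 1.42.0, 2 other filters, replicate, animal-number series or Xist in the model, all 16 libraries together, an adjusted p of 0.1 and leaving out libraries. The fit was tested on simulated counts. No column of the tables was left unmapped. Some items are not reported here.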

Additional observations from a re-analysis of the deposited data

Results flagged for a closer look

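Within groups of 4 libraries, 11 of 100 sets of values (list levels and the CPM of Dlgap3 and its neighbours) had 1 library far from the other 3, by Dixon's 95% criterion; chance flags about 1 in 20. In 6 of them it was wild-type replicate 1. Its level relative to the wild-type mean was -1.70 on the cortical excitatory neuron list (others 0.48 to 0.63), -0.393 on the presynaptic list (others 0.13), -0.277 on the endocannabinoid list (others 0.08 to 0.11) and -0.187 on the SAPAP family list (others 0.05 to 0.08), and it had 150 CPM of Grik3 (others 185 to 191). It also had 498 CPM of Dlgap3 (others 380 to 397). Wild-type replicate 4 was apart for Ccdc28b (12.1 CPM, others 13.8 to 14.1) and Trim62 (20.4 CPM, others 16.8 to 17.3). Among knockout libraries the distances were small: replicate 1 at 0.0459 on the GABA list (others 0.07), replicate 2 at 0.0452 on the cholesterol list (others 0.18) and replicate 3 at -0.0769 on the striosome list (others 0.11 to 0.14). The cause of these distances was not tested.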

How the results depend on the processing

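Dlgap3 kept its direction in every alternative run. Its log2 fold change without 1 library ran from -1.25 to -1.10, and it no longer passed without knockout replicate 2, 3 or 4 or without both replicates with Xist reads (-1.27, adjusted p = 0.138). The count of called genes, 1, became 8 with DESeq2, 3 with all 16 libraries in 1 fit (Dlgap3, Zbtb8a and Hdac1), 2 at an adjusted p under 0.1, 0 without both replicates with Xist reads, and 0 to 1 when 1 library was left out. The 869 genes at an unadjusted p under 0.05 became 531 to 1534 when 1 library was left out (1534 without wild-type replicate 3, 556 without knockout replicate 1, 531 without knockout replicate 4), and the cause was not tested. The 33 neighbours of Dlgap3 at that p stayed within 1.5 times of that count in every alternative. In IP the count of 4 became 8 with DESeq2, 2 with the replicate block and 0 to 3 when 1 library was left out, and for the interaction 0 became 1 with DESeq2.

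Replicate numbers did not pair the input libraries: residuals of same-numbered mice correlated at -0.03, 0.09, 0.43 and -0.11. With the replicate block, Dlgap3 was at -1.19 (adjusted p = 0.0065), 1 gene was called and 1076 had an unadjusted p under 0.05. Over 199 other named genes, 2919 of 2985 recomputed values kept their sign, and 6 passed an adjusted p of 0.05, all with DESeq2. Apart from these values, the fit of all 16 libraries also called Zbtb8a and Hdac1 (edgeR adjusted p = 0.0146 and 0.0172). Of 396 recomputed list medians 7 moved by more than the replicate SD, those of the serotonin and meningeal lists. By this measure the cortical median, 0.46 and then 0.18 without wild-type replicate 1, did not count as moved. The wild-type SD of that list, 1.13, includes that library, so the count says little about lists on which it stood apart. The alternative without knockout replicates 3 and 4 was chosen after seeing the data. Depth and 4 mice a group limit rare transcripts most: the median 95% interval reached 0.64 to either side (log2) below 2 CPM and 0.15 above 32 CPM.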

Other observations

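Lists not described above gave these medians in input (knockout minus wild type, log2): 0.12 for 15 genes of the unfolded protein and integrated stress response (12 higher), with the chaperone gene Hspa5 at 0.29 and between 212 and 263 CPM in wild-type against 238 to 324 CPM in knockout libraries; 0.11 for 14 markers of striatal interneurons; 0.09 for 9 genes of endocannabinoid signalling; 0.08 for 7 markers of striosome neurons and -0.13 for 5 of matrix neurons. Markers of oligodendrocyte precursors were at -0.06 (10 genes), where Gpr17 was at 0.25 and Sox10 at -0.20. Circadian clock genes were at -0.03 (15), dopamine neuron transcripts at -0.02 (5), septal and other forebrain markers at -0.01 (12), ependymal and choroid plexus markers at 0.01 (10) and meningeal markers at -0.18 (9). The meningeal median was 0.05, with 5 of 9 higher, without knockout replicates 3 and 4, and the differences within series were 0.04 (84) and -0.40 (87). Of 6 sex-linked transcripts 5 were tested, at a median of -0.05, and Alas2, the 1 tested blood cell gene, was at 0.05.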
